A study of Arabidopsis thaliana with 12 samples.

Results

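The response of an undamaged leaf to the wounding of a distant leaf was followed in isi1-2, an Arabidopsis thaliana T-DNA line (SALK_014032) with an insertion allele of ISI1 in the Col-0 background. The comparison was chosen by the sample labels alone: 3 libraries of wounded isi1-2 plants were set against 3 libraries of unwounded isi1-2 plants, 6 of the 12 libraries in the series. In the wounded group, leaf 13 of 5-week-old rosettes was taken 1 h after part of the blade of leaf 8 had been crushed with forceps, and the unwounded group gave leaf 13 of plants that received no treatment. Both groups carried the isi1-2 allele, grew in 10 h days and were sampled as biological replicates that each pooled 2 plants. A single mutant line was used. The other 6 libraries are the same groups of the Col-0 wild type (WT), which entered the model and the test of whether a response differed between genotypes. Stranded poly-A libraries were sequenced, and reads were counted per gene.

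An injured rosette leaf sends electrical and calcium signals along its veins to the leaves with which it shares vascular connections, and those leaves make jasmonates within minutes. The conjugate jasmonoyl-isoleucine joins the F-box protein COI1 to JAZ repressors, the JAZ proteins are degraded, and MYC2 and related factors are released onto their target genes. Among those targets are the genes for hormone synthesis, the JAZ repressors and the enzymes that break the hormone down, besides defence genes, and jasmonate is known to restrain leaf growth. ISI1, named for impaired sucrose induction, has been linked to sugar responses and the phloem.

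The isi1-2 libraries held 23828254 to 28916057 counts over genes, and 21030 to 21198 genes had at least 1 count in each. The 10 most abundant genes took 9.46% to 10.3% of the counts in wounded libraries and 11.8% to 12% in unwounded libraries. ISI1 itself had 4, 1 and 1 counts in the wounded libraries and 1 count in each unwounded library, and was not called (edgeR adjusted p = 0.345). On the CPM scale (counts relative to library size, TMM-scaled) that was 0.0821 ± 0.0728 CPM in wounded and 0.0374 ± 0.00353 CPM in unwounded leaves, against 10.8 ± 1.11 CPM in wounded and 10.6 ± 0.923 CPM in unwounded WT leaves (SD, n = 3 each). RCA, CA1, RBCS1A, LHCB1.3 and GAPA, genes of photosynthesis that mark leaf cells, were all tested, and RCA, which encodes Rubisco activase, averaged 5281 ± 384 CPM in wounded and 8036 ± 317 CPM in unwounded leaves (SD, n = 3 each). Of 5 floral organ genes 4 did not pass the count filter, and AG was at or under 1.89 CPM in every isi1-2 library. The markers were not level between groups: RCA and GAPA fell by 0.61 ± 0.06 and 0.19 ± 0.05 on the log2 scale, CA1 was lower by 0.17 ± 0.06 and AG by 1.40 ± 0.42, calls kept in 2 (CA1) and 4 (AG) of 6 fits that each left out 1 isi1-2 library, and RBCS1A and LHCB1.3 were not called. All 4 root hair genes failed that filter. In bulk leaf RNA, fewer cells of a type and less RNA per cell cannot be told apart.

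A gene was called when its adjusted p-value in edgeR's quasi-likelihood test was under 0.05 over all 18698 genes tested, and every log2 fold change is that of wounded over unwounded isi1-2 leaves, given ± its standard error. At 1 h after the distant wound 9508 genes (50.9%) were called. The calls were evenly divided, with 4695 genes (25.1%) higher and 4813 (25.7%) lower, and the median log2 fold change of all genes tested was -0.00. Large changes were mostly increases. At least 2-fold changes numbered 1566 higher (8.38% of genes tested) and 1192 lower (6.38%), and at least 8-fold changes 448 higher and 72 lower. Of the called genes 7241 (76.2%) kept their call in each of the 6 fits that left out 1 isi1-2 library. With 25.1% of all genes called higher and 25.7% lower, the share of a gene list that was called is read against those shares.

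**Figure D1:**
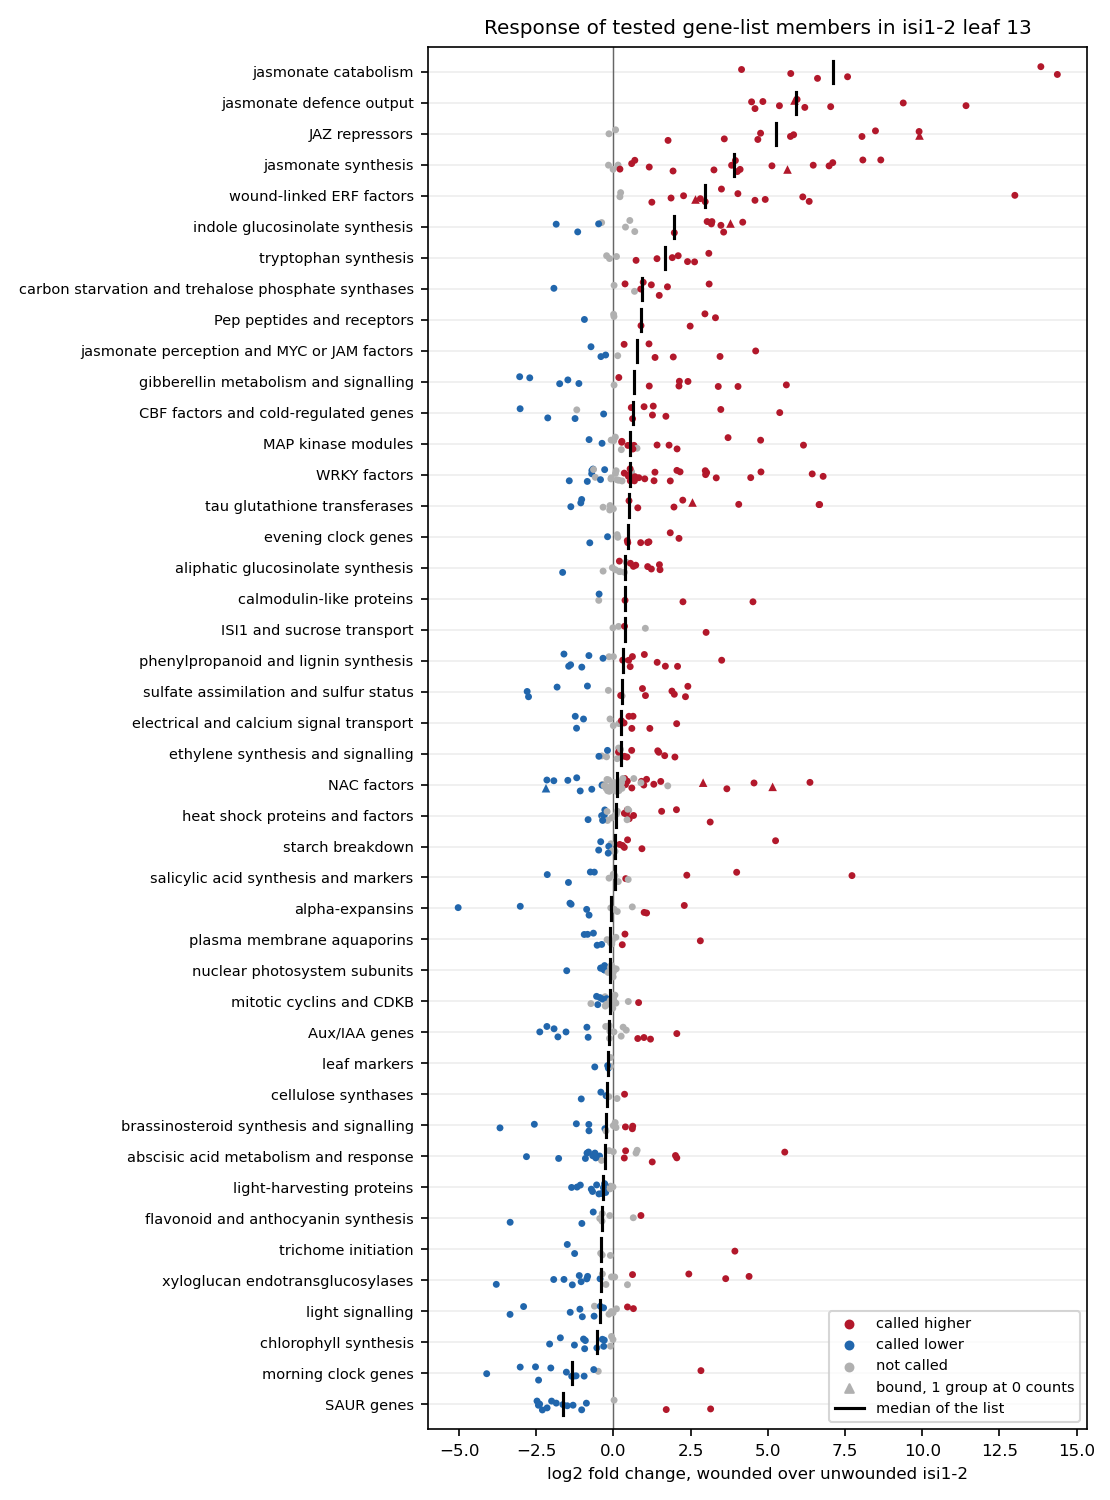
Log2 fold change of wounded over unwounded isi1-2 leaves (horizontal axis) for each tested member of the gene lists with at least 5 tested members, 1 list per row, with the median as a black bar. Jasmonate lists lie far to the right, at medians of 5.25 for JAZ repressors and 7.10 for catabolism, while SAUR and morning clock lists lie left of 0 at -1.64 and -1.35. Triangles are lower bounds on the size of the change, in either direction, for genes with no counts in 1 group.

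Genes for JAZ repressors and for enzymes that act on jasmonates were among those that rose most. JAZ7, which encodes a short JAZ repressor, had 143, 86.3 and 95.5 CPM in the wounded libraries, against 0, 0 and 0 CPM in the unwounded libraries. The 3 wounded libraries were all high and the unwounded ones held no count, so the rise was at least 963-fold against a floor of 3 counts per library (edgeR adjusted p = 9.48e-06). AT3G22275, annotated as a jasmonate ZIM-domain protein, had 77.1, 55.5 and 67.7 CPM in the wounded libraries, against 0, 0 and 0 CPM in the unwounded libraries, a rise of at least 595-fold (edgeR adjusted p = 4.86e-11). CYP94B1, a cytochrome P450 that hydroxylates jasmonoyl-isoleucine, had 343, 399.9 and 354 CPM in the wounded libraries, against 0, 0 and 0.0411 CPM in the unwounded libraries. A single count in 1 unwounded library gave a ratio of 29476-fold (95% interval 5289.9 to 1164300), an interval that covers counting error only. CYP94B3, an enzyme of the same step, had 502, 788 and 561 CPM in the wounded libraries, against 0.0742, 0.0341 and 0 CPM in the unwounded libraries, and its ratio was 16588-fold (95% interval 5676 to 80442). AT2G38240, annotated as a 2-oxoglutarate-dependent oxygenase, had 303, 431 and 323 CPM in the wounded libraries, against 0.0371, 0 and 0 CPM in the unwounded libraries. In all 3 genes the wounded libraries were separate from the unwounded ones.

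Beside hormone genes, the 10 largest increases among genes above the minimum level held regulators and volatile-forming enzymes. RAP2.6, an ERF transcription factor, had 147, 155 and 120.0 CPM in the wounded libraries, against 0.0371, 0 and 0 CPM in the unwounded libraries, a ratio of 11335-fold (95% interval 2034 to 447740). RRTF1, the redox responsive ERF factor, had 79.3, 47.6 and 49.8 CPM in the wounded libraries, against 0, 0 and 0 CPM in the unwounded libraries, at least 524-fold higher. Of the RRTF1 exon bases 69.5% lie under a gene of the opposite strand, and whether the counting used strand is not given in the sources used here. CYP82G1, which makes the homoterpene TMTT, had 162, 174 and 129.9 CPM in the wounded libraries, against 0, 0.0341 and 0 CPM in the unwounded libraries. TPS04, which makes its precursor geranyllinalool, had 191, 213 and 144 CPM in the wounded libraries, against 0.186, 0 and 0 CPM in the unwounded libraries and a log2 fold change of 11.42 ± 0.44 (edgeR adjusted p = 2.03e-07). AT5G19110, annotated as an aspartyl protease, completed these 10 genes with a ratio of 1296-fold (95% interval 443 to 6289). The order follows fitted fold changes, which depend on the prior count for genes with no unwounded counts. At their bounds AT3G22275 and RRTF1 would stand below TAT3, a gene outside these 10 with a fitted log2 fold change of 9.38. In all, 53 tested genes had no count in any unwounded isi1-2 library. They passed the count filter through other groups, chiefly those in which they were high, and no test is drawn from their number.

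The genes that fell most included enzymes of the growing cell wall and a clock gene. EXPA8, an alpha-expansin that loosens walls, had 5.23, 1.98 and 3.85 CPM in the wounded libraries, against 104, 115 and 142 CPM in the unwounded libraries, a log2 fold change of -5.03 ± 0.39 (edgeR adjusted p = 5.06e-06). XTH31, a xyloglucan endotransglucosylase, had 7.39, 4.78 and 4.68 CPM in the wounded libraries, against 84.6, 72.8 and 76.2 CPM in the unwounded libraries (edgeR adjusted p = 4.39e-06). GASA6, a gibberellin-regulated peptide gene, had 5.23, 2.27 and 4.64 CPM in the wounded libraries, against 97.2, 91.3 and 95.5 CPM in the unwounded libraries (edgeR adjusted p = 1.29e-08). The 3 wounded libraries were below every unwounded library in each of these genes. PRR9, a morning pseudo-response regulator of the clock, had 1.16, 0.445 and 0.635 CPM in the wounded libraries, against 13.2, 13 and 12.5 CPM in the unwounded libraries, and 41.5% of its 100-base exon windows occur elsewhere in the genome. BBX16, a B-box zinc finger factor, had 1.83, 0.972 and 0.833 CPM in the wounded libraries, against 13.6, 15.7 and 14.1 CPM in the unwounded libraries. The cytochrome P450 genes CYP71B2 and CYP96A12 fell by 3.98 ± 0.23 and 3.45 ± 0.16 on the log2 scale. AT5G48490, annotated as a lipid-transfer protein, fell by 4.84 ± 0.26, AT4G13577, an uncharacterized protein, by 3.85 ± 0.16, and AT1G64500, of the glutaredoxin family, by 3.54 ± 0.21.

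Promoters of these genes were read for short motifs that transcription factors are known to bind, in the 250 bases before and 50 bases after each annotated start. The motifs, searched on both strands, were CACGTG (G-box) and its variant AACGTG (T/G-box), both bound by MYC2, CGCGTT (the rapid stress response element, RSRE), GCCGCC (GCC box), CCGAC (DRE core), TTGACC and TTGACT (W-box, forms 1 and 2) and AATATCT (evening element core). G-box and T/G-box share 5 letters but cannot be the same site, whereas both W-box forms hold the same first 5 letters. The T/G-box was present in 27.7% of 448 promoters of genes at least 8-fold higher, 19.2% of those at least 2-fold higher, 6.46% of those at least 2-fold lower and 1.39% of 72 promoters of genes at least 8-fold lower. It was in 8.58% of the promoters of all tested genes and in 8.69% of 32546 promoters of the genome. The G-box was in 18.1% of promoters at least 8-fold higher, 13.9% of those at least 8-fold lower and 8.95% of all tested. At the 2-fold size it was in 14.8% of promoters higher and 7.55% of those lower. RSRE was in 6.71% of promoters at least 2-fold higher, 1.68% of those at least 2-fold lower and 3.79% of all tested. The GCC box was in 2.49%, 2.01% and 2.71% of the same 3 sets, so its share at the 2-fold size was near that of all tested genes. At the 8-fold size it was in 3.79% of promoters higher and 2.78% of those lower. W-box form 1 was in 13.4% of promoters at least 8-fold higher, 22.2% of the 72 at least 8-fold lower and 14.2% of all tested. W-box form 2 was in 22.8%, 13.9% and 21.4%, and the DRE core in 16.3%, 6.94% and 16.6% of the same 3 sets. At the 2-fold size form 1 took the opposite order, with 17.3% of promoters higher and 12.1% of those lower. Form 2 was then in 25.4% and 19.6%, and the DRE core in 18.5% and 11.5%. These shares describe letters in the sequence, and a match is not shown to be a bound site.

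**Figure D2:**
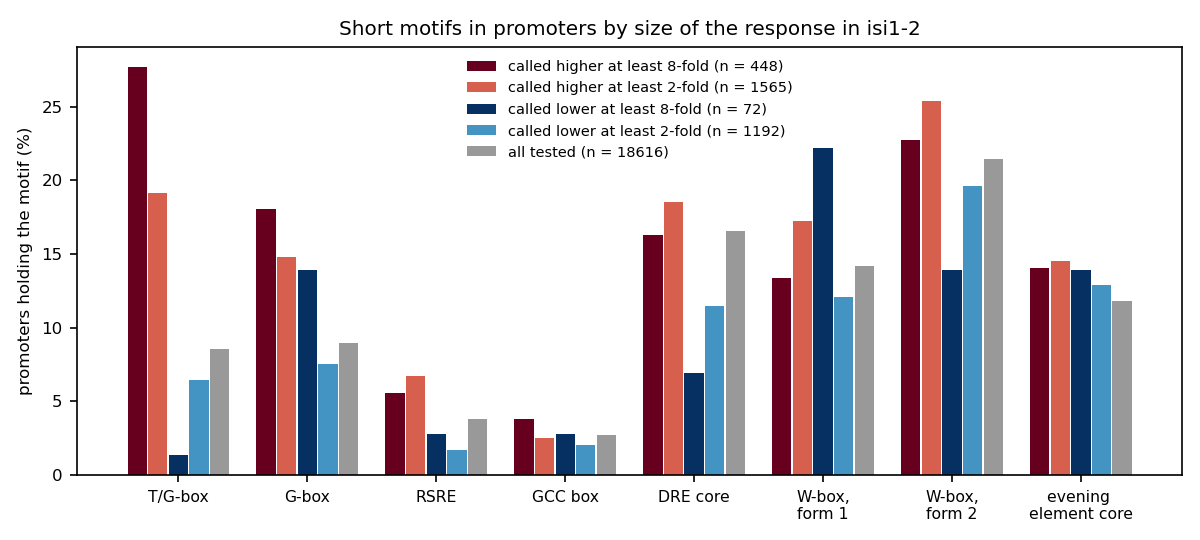
Percentage of promoters (250 bases before to 50 after the start, vertical axis) that hold each motif, for genes called at least 8-fold and at least 2-fold higher or lower in wounded isi1-2 leaves and for all tested genes, with the number of promoters in the legend. The T/G-box bar stands at 27.7% for genes at least 8-fold higher and at 8.58% for all tested genes.

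The 250 bases upstream of JAZ7, AT3G22275, RAP2.6 and PRR9, from the strand of each gene, are shown because these genes are among the 10 largest increases or decreases and hold the G-box or T/G-box bound by MYC2, or, for PRR9, the motifs typical of clock genes. Capitals mark motif matches on either strand; all 4 windows were free of annotated genes. Sequences and positions are from RefSeq, assembly TAIR10.1.
JAZ7, chr2:14572780-14573029, plus strand: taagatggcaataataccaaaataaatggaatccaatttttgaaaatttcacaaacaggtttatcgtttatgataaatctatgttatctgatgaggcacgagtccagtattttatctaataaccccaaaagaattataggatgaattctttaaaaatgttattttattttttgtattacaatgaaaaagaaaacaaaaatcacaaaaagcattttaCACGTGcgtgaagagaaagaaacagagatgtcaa
AT3G22275, chr3:7879811-7880060, minus strand: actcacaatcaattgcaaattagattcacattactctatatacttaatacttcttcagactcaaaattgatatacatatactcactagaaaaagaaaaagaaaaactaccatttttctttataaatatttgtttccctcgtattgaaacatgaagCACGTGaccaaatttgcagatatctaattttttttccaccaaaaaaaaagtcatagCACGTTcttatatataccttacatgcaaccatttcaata
RAP2.6, chr1:16263555-16263804, plus strand: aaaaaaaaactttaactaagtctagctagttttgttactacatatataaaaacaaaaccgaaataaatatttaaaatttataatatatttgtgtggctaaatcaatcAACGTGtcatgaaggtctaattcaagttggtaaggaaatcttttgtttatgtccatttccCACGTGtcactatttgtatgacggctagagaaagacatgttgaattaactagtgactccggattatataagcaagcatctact
PRR9, chr2:19232357-19232606, plus strand: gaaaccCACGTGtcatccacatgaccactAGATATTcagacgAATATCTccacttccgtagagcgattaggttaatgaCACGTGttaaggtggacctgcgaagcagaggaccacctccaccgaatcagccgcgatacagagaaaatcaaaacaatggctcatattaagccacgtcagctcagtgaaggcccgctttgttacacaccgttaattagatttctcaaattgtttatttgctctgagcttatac
JAZ7 holds a G-box close to its start, AT3G22275 and RAP2.6 each hold a G-box and a T/G-box, and PRR9 holds G-boxes beside the evening element core. Others of the 10 largest increases, CYP94B1, CYP94B3, AT2G38240, CYP82G1, TPS04 and AT5G19110, hold neither box in their windows, while RRTF1 holds a G-box. Of 6 promoters in the jasmonate catabolism list 0 held either box, and of 12 in the JAZ repressor list 33.3% held each. In the morning clock list 76.9% of 13 promoters held the G-box and 46.2% the evening element core, and in the evening clock list 63.6% of 11 promoters held the evening element core, against 11.8% of all tested genes.

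Nearly the whole route of jasmonate synthesis rose in the distal leaf of isi1-2. Of 20 tested synthesis genes 17 were called higher and 0 lower, with a median log2 fold change of 3.89 (genes with no unwounded counts at their bound) beside -0.00 for all tested genes. The list held 2.43% to 2.71% of all gene counts in wounded libraries and 0.206% to 0.249% in unwounded libraries. DAD1, a lipase that frees linolenic acid, had 5.69, 6.4 and 4.44 CPM in the wounded libraries, against 0, 0 and 0 CPM in the unwounded libraries, at least 49.1-fold higher. The lipoxygenase LOX3 had 3235, 3565 and 2895 CPM in the wounded libraries, against 25.2, 23.3 and 28.2 CPM in the unwounded libraries (6.98 ± 0.28 on the log2 scale, edgeR adjusted p = 2.49e-08). LOX4, its close relative, had 550.1, 483 and 443 CPM in the wounded libraries, against 3.41, 3.48 and 3.87 CPM in the unwounded libraries. Both lipoxygenases were separate between groups by a wide margin, and LOX2, which was already abundant in unwounded leaves, rose by 3.25 ± 0.17.

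Downstream of the lipoxygenases, AOS, the allene oxide synthase, rose by 3.83 ± 0.10 on the log2 scale. The 4 allene oxide cyclase genes all rose but by unequal amounts. AOC1 had 1179, 1296 and 999 CPM in the wounded libraries, against 3.12, 2.32 and 3.21 CPM in the unwounded libraries, and AOC3 had 79.2, 78.8 and 67.1 CPM in the wounded libraries, against 0.186, 0.273 and 0.37 CPM in the unwounded libraries. The log2 fold changes were 8.66 ± 0.27 for AOC1, 8.08 ± 0.51 for AOC3, 3.95 ± 0.18 for AOC2 and 1.16 ± 0.10 for AOC4. OPR3, the peroxisomal reductase, had 2211, 2142 and 2126 CPM in the wounded libraries, against 23.3, 23.6 and 26.2 CPM in the unwounded libraries, and the ligase gene OPCL1 rose by 4.10 ± 0.18. The later beta-oxidation genes had smaller values: ACX1 rose by 1.93 ± 0.10 and KAT2 by 0.21 ± 0.06, while AIM1 had 158, 157 and 149.9 CPM in the wounded libraries, against 155, 161 and 154 CPM in the unwounded libraries (edgeR adjusted p = 0.879), groups that overlapped. JAR1, which joins jasmonate to isoleucine, rose by 4.01 ± 0.20, and JMT, which forms methyl jasmonate, by 5.13 ± 0.27.

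**Figure D3:**
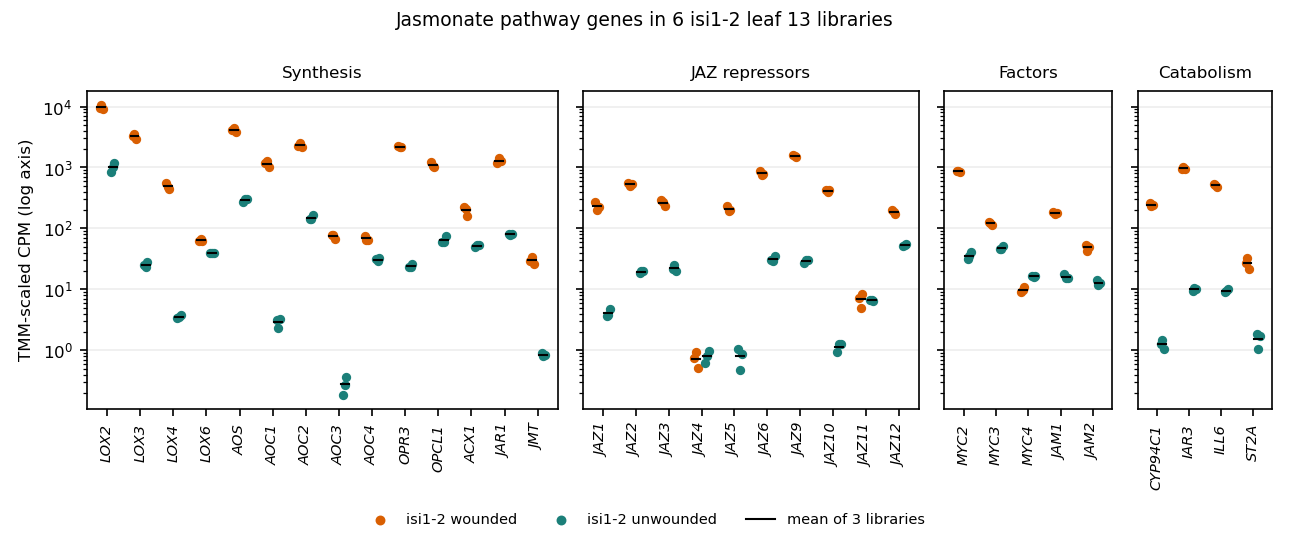
TMM-scaled CPM on a log axis for selected jasmonate genes in each of 3 wounded (left of each pair) and 3 unwounded (right) isi1-2 libraries. Bars mark the group means. Genes with no count in an unwounded library are left out, and so are some other list members, such as AIM1, KAT2 and COI1. The groups are separate for the synthesis genes shown and overlap for JAZ4 and JAZ11. Those of AIM1, which is not shown, also overlap.

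The JAZ repressor genes rose with the exception of JAZ4 and JAZ11, whose log2 values were -0.15 ± 0.31 and 0.07 ± 0.16 and which were not called. The count was 10 of 12 higher and 0 lower, with a median of 5.25. JAZ10, a repressor with splice forms that resist degradation, had 426, 394 and 426 CPM in the wounded libraries, against 0.928, 1.26 and 1.27 CPM in the unwounded libraries (8.49 ± 0.17, edgeR adjusted p = 8.46e-14). JAZ8, a short repressor that lacks the canonical degron, had 18.4, 15.3 and 15.5 CPM in the wounded libraries, against 0, 0.0341 and 0 CPM in the unwounded libraries. JAZ9 rose by 5.73 ± 0.18 and JAZ12, the smallest called change of the family, by 1.77 ± 0.07. Of these 12 genes JAZ7 and JAZ8 had at most 1 count in each unwounded library, and the other 10 had measurable levels. AT3G22275, described above, is not in that list.

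Perception and the MYC factors moved both ways. In that list of 10 genes 6 were called higher and 3 lower, with a median of 0.75. MYC2, the main activator of jasmonate targets, had 890.5, 868 and 836 CPM in the wounded libraries, against 31.1, 35 and 40.6 CPM in the unwounded libraries (4.61 ± 0.16, edgeR adjusted p = 2.23e-10). Of its exon bases 98.5% lie under exons of the opposite strand, so this value assumes that the counting separated the strands. MYC4, a relative of MYC2, fell by 0.73 ± 0.16 and MYC3 rose by 1.35 ± 0.07. The repressive bHLH factors JAM1 and JAM2 rose by 3.45 ± 0.11 and 1.94 ± 0.11. COI1, the receptor subunit, fell by 0.41 ± 0.07, NINJA, the adaptor of JAZ proteins, rose by 1.15 ± 0.06, and MED25, a Mediator subunit, had overlapping groups (edgeR adjusted p = 0.168).

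All 6 tested jasmonate catabolism genes rose, with a median of 7.10, and 1 of the 7 listed genes failed the count filter. CYP94B1 and CYP94B3, near 0 in unwounded isi1-2 leaves, passed that filter through other groups, so the count of 6 is partly set by the filter. Beside CYP94B1 and CYP94B3, CYP94C1, which oxidizes the hydroxylated hormone further, had 261, 231 and 244 CPM in the wounded libraries, against 1.26, 1.47 and 1.07 CPM in the unwounded libraries. The amidohydrolase genes IAR3 and ILL6, whose products cleave the conjugate, rose by 6.61 ± 0.13 and 5.74 ± 0.12, and ST2A, a sulfotransferase of hydroxyjasmonate, by 4.15 ± 0.36. The 7 listed genes together made up 0.248% to 0.285% of all gene counts in wounded libraries and 0.00225% to 0.00234% in unwounded libraries.

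The jasmonate defence genes that could be tested also rose, all 10 of 10, with a median of 5.90. Members with no unwounded counts, such as BSMT1, passed the count filter through other groups, so that count is partly set by the filter. VSP2, a vegetative storage protein gene, had 257, 225 and 137 CPM in the wounded libraries, against 3.3, 5.66 and 5.96 CPM in the unwounded libraries (5.37 ± 0.72, edgeR adjusted p = 2.51e-04). Replicate 3 was the lowest wounded library, and all 3 were above the unwounded ones. TAT3, a tyrosine aminotransferase, had 1293, 1259 and 1347 CPM in the wounded libraries, against 3.9, 0.75 and 1.19 CPM in the unwounded libraries (9.38 ± 0.73). BSMT1, which methylates salicylic and benzoic acid, had 5.94, 8.26 and 5.16 CPM in the wounded libraries, against 0, 0 and 0 CPM in the unwounded libraries, at least 57.4-fold higher. The terpene synthases TPS03 and TPS10 rose by 4.58 ± 0.22 and 6.20 ± 0.37, and HPL1, the hydroperoxide lyase of green leaf volatiles, by 5.95 ± 0.15. PDF1.2 and its copies PDF1.2b and PDF1.2c, and THI2.1, markers of the branch shared with ethylene and of thionins, stayed under the count filter, with at most 3 counts in any wounded library and 8 in any unwounded library.

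Signal transport and kinase genes responded in part. Of 14 electrical and calcium transport genes 8 were higher and 3 lower, with a median of 0.24. RBOHD, an NADPH oxidase of the plasma membrane, had 63, 58.8 and 54.4 CPM in the wounded libraries, against 24.2, 26.4 and 27.2 CPM in the unwounded libraries (1.18 ± 0.10), and the calcium channel gene CNGC19 rose by 2.05 ± 0.43. The glutamate receptor-like channels split: GLR3.3 rose by 0.60 ± 0.12 and GLR3.1 by 0.50 ± 0.13, whereas GLR3.6 fell by 0.97 ± 0.12 and GLR3.2 by 1.2 ± 0.18. MSL10, a mechanosensitive channel, had 9.09, 8.95 and 7.3 CPM in the wounded libraries, against 18.6, 21.6 and 19.6 CPM in the unwounded libraries and fell by 1.24 ± 0.12. Of 7 tested genes of Pep peptides and receptors 4 were higher and 1 lower. PEPR1 and PEPR2, the receptors of these danger peptides, rose by 2.48 ± 0.25 and 3.3 ± 0.17, and the peptide precursor gene PROPEP4 by 2.96 ± 0.59. PROPEP1 was lower by 0.94 ± 0.29, a call kept in 5 of the 6 fits without 1 isi1-2 library.

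Among 18 genes of MAP kinase modules 11 were higher and 2 lower, with a median of 0.55. The increases above 3 on the log2 scale were in MAPKKK genes of 1 clade. MAPKKK17 had 29.4, 33.6 and 23 CPM in the wounded libraries, against 0.334, 0.375 and 0.493 CPM in the unwounded libraries (6.15 ± 0.38), MAPKKK14 rose by 4.77 ± 0.34 and MAPKKK15 by 3.71 ± 0.30. MPK3, a kinase of immune and stress signalling, fell by 0.79 ± 0.09, and MPK4 was not called (edgeR adjusted p = 0.591). Of the 5 tested calmodulin-like genes 3 were higher and 1 lower, and CML38, a calcium sensor, had 8.01, 9.68 and 5.67 CPM in the wounded libraries, against 0.631, 0.17 and 0.206 CPM in the unwounded libraries.

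Members of the ERF, WRKY and NAC families of transcription factors were among the genes that rose. Of 15 ERF genes listed for their link to wounding, which are not the whole family, 13 were higher and 0 lower, all 13 by at least 2-fold, with a median of 2.97. ERF13 had 18.1, 14.3 and 16.9 CPM in the wounded libraries, against 0.111, 0.307 and 0.164 CPM in the unwounded libraries (6.34 ± 0.29), and ERF115, a factor linked to cell replenishment, was at least 6.26-fold higher. ERF104 and ERF105 were not called. Of 39 tested WRKY genes 22 were higher and 7 lower, against 25.1% and 25.7% of all genes, and 28 further members failed the count filter. WRKY40 and WRKY18, related repressors of immune responses, had 48.7, 43 and 50 CPM in wounded and 0.631, 0.273 and 0.37 CPM in unwounded leaves for WRKY40 and 279.6, 335 and 357 CPM in wounded and 3.27, 3.48 and 4.52 CPM in unwounded leaves for WRKY18. WRKY11 fell by 1.43 ± 0.11. Of 48 tested NAC genes 14 were higher and 8 lower, near the share of all genes, but some members moved far. NAC019 had 62, 38 and 32.8 CPM in the wounded libraries, against 0.445, 0.716 and 0.411 CPM in the unwounded libraries, and RD26, a related NAC factor of dehydration and senescence, had 157, 109.7 and 91.1 CPM in the wounded libraries, against 2.45, 2.59 and 2.59 CPM in the unwounded libraries. Replicate 1 was the highest wounded library for both, and all wounded libraries were above all unwounded ones. NAC3 (AT3G15500) was at least 35.6-fold higher. NAP, a senescence-linked NAC factor, had 0, 0 and 0 counts in the wounded libraries and 19, 22 and 5 in the unwounded libraries, at least 4.55-fold lower against a floor of 3 counts per library.

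Clock genes that peak in the morning were lower and several evening genes were higher. Of 13 morning genes 11 were called lower and 1 higher, with a median of -1.35, and 9 fell at least 2-fold. CCA1, a MYB factor at the core of the clock, had 1.29, 0.931 and 0.516 CPM in the wounded libraries, against 6.98, 7.33 and 7.89 CPM in the unwounded libraries (-3.02 ± 0.23, edgeR adjusted p = 1.78e-08). Its partner LHY fell by 1.35 ± 0.40, RVE8, an activator of evening genes, by 2.53 ± 0.30, and the co-activator genes LNK1 to LNK4 by 1.28 ± 0.14, 1.21 ± 0.10, 2.03 ± 0.22 and 1.53 ± 0.10. RVE2 was the exception and rose by 2.83 ± 0.53, with 1.16, 5.14 and 4.04 CPM in the wounded libraries, against 0.334, 0.716 and 0.37 CPM in the unwounded libraries. RVE1 was not called (edgeR adjusted p = 0.413).

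Of 11 evening clock genes 7 were higher and 2 lower, with a median of 0.46. LUX, a MYB-like factor of the evening complex, had 96.2, 119 and 101 CPM in the wounded libraries, against 28, 31.2 and 29.3 CPM in the unwounded libraries (1.84 ± 0.13, edgeR adjusted p = 1.28e-07). BOA, its close relative, rose by 2.12 ± 0.19, and the evening complex partners ELF4 and ELF3 by 1.15 ± 0.12 and 0.46 ± 0.07. TOC1, a pseudo-response regulator of the evening, rose by 1.11 ± 0.14. CHE, a repressor of CCA1, fell by 0.77 ± 0.08, and GI was lower by 0.19 ± 0.06, a call kept in 4 of the 6 fits without 1 isi1-2 library. For LUX 38.5% and for BOA 48.4% of exon bases lie under a gene of the opposite strand. The labels give no clock time of harvest for either group, and the part of time of day in these values was not tested.

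**Figure D4:**
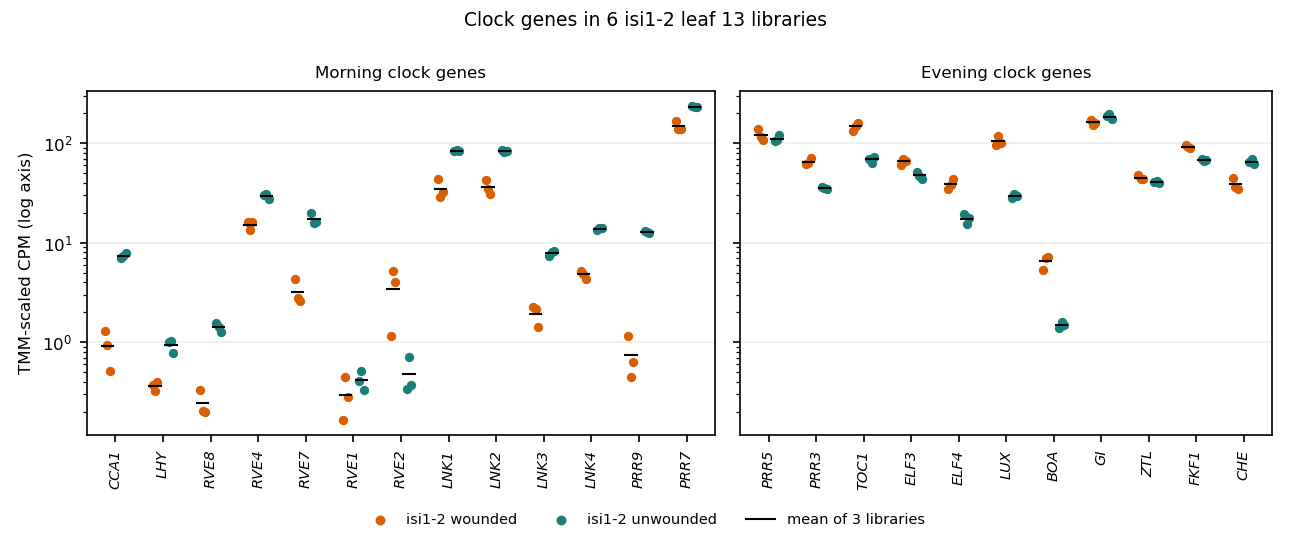
TMM-scaled CPM on a log axis for clock genes in 3 wounded (left of each pair) and 3 unwounded (right) isi1-2 libraries, with bars at the group means. Of the morning genes only RVE2 is called higher; wounded values of CCA1 reach 1.29 CPM and unwounded values begin at 6.98 CPM.

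The genes whose response differed from that of WT came in part from these lists. Over all genes the interaction, isi1-2 response minus WT response, was called for 6 genes (0.0321%) and reached an unadjusted p under 0.05 for 1961. That count moved between 0 and 245 when 1 library was left out, with the highest count without replicate 1 of wounded WT. In isi1-2 the evening gene PRR5 had 140.4, 115 and 109 CPM in the wounded libraries, against 106, 108 and 122 CPM in the unwounded libraries, groups that overlapped and were not called (edgeR adjusted p = 0.291). FKF1, a blue-light sensor of flowering time, had 96.4, 91.5 and 89.8 CPM in the wounded libraries, against 69.8, 65.8 and 68.1 CPM in the unwounded libraries and rose by 0.45 ± 0.08. EXPA10, an alpha-expansin, had 68.8, 89.5 and 85.5 CPM in the wounded libraries, against 15.7, 16.3 and 17.7 CPM in the unwounded libraries and rose by 2.29 ± 0.12, the largest increase of its family here.

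Many genes of tryptophan and indole glucosinolate synthesis rose. Glucosinolates are sulfur-rich defence compounds, and the indole ones are built from tryptophan. Of 10 tryptophan synthesis genes 7 were higher and 0 lower, with a median of 1.66. ASA1, the first committed enzyme of the route, had 349, 365 and 353 CPM in the wounded libraries, against 43, 39.3 and 43.2 CPM in the unwounded libraries (3.09 ± 0.07, edgeR adjusted p = 5.37e-15). ASA2, a second gene for that step, had 52.7, 52.1 and 53.2 CPM in the wounded libraries, against 50.7, 49.8 and 47.2 CPM in the unwounded libraries and was not called (edgeR adjusted p = 0.184). PAI2 rose by 2.63 ± 0.12, but 40.3% of its exon windows occur elsewhere in the genome, and its copies PAI1 and PAI3 were not called. TSB2, a tryptophan synthase subunit, rose by 2.40 ± 0.11.

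Of 15 tested indole glucosinolate genes 8 were higher and 3 lower, with a median of 1.97, and the list held 0.46% to 0.496% of all gene counts in wounded libraries and 0.0728% to 0.0793% in unwounded libraries. MYB34, an activator of the route, had 283, 272 and 262 CPM in the wounded libraries, against 21.2, 24.2 and 23.4 CPM in the unwounded libraries (3.57 ± 0.09, edgeR adjusted p = 1.63e-14), while MYB51, another activator, was not called. CYP79B3, which turns tryptophan into its oxime, had 487, 544 and 521 CPM in the wounded libraries, against 28.3, 24.7 and 32.4 CPM in the unwounded libraries (4.19 ± 0.16), and CYP79B2 rose by 3.19 ± 0.18. The core steps CYP83B1, GGP1, UGT74B1 and SOT16 rose by 3.17 ± 0.08, 3.48 ± 0.12, 1.97 ± 0.07 and 3.03 ± 0.09. The enzymes that modify the indole ring split. CYP81F4 had 37, 53 and 24 counts in wounded and no counts in unwounded libraries, with 99.5% of its exon bases under a gene of the opposite strand. CYP81F2 and CYP81F3 fell by 1.86 ± 0.40 and 1.16 ± 0.31, and PEN2, the myrosinase that activates indole glucosinolates in immunity, by 0.48 ± 0.11.

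The aliphatic route, which starts from methionine, moved less. Of 16 tested genes 8 were higher and 1 lower, with a median of 0.38. MYB28, its main activator, had 23.8, 21.5 and 22.7 CPM in the wounded libraries, against 68.9, 69.9 and 74.1 CPM in the unwounded libraries and fell by 1.65 ± 0.11 (edgeR adjusted p = 2.74e-08), whereas the related MYB76 rose by 1.49 ± 0.18. BCAT4, which opens methionine chain elongation, and the sulfotransferase gene SOT17 rose by 1.23 ± 0.29 and 1.51 ± 0.19. CYP79F1, CYP79F2 and CYP83A1, the core P450 genes, were not called, with log2 values of 0.19 ± 0.17, 0.36 ± 0.26 and -0.03 ± 0.15.

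Sulfate genes split by step. Of 13 tested 7 were higher and 4 lower. The kinases APK1 and APK2, which make the sulfate donor used for glucosinolates, had 379.9, 395 and 353 CPM in wounded and 70, 72.4 and 70.1 CPM in unwounded leaves for APK1 and 279, 290.2 and 286 CPM in wounded and 56.5, 56.8 and 56.5 CPM in unwounded leaves for APK2, with log2 fold changes of 2.41 ± 0.13 and 2.33 ± 0.18. APS1 and APS3, ATP sulfurylases of the preceding step, rose by 1.04 ± 0.08 and 1.89 ± 0.10. The APR reductases of the branch towards cysteine fell, APR2 by 2.80 ± 0.19, and APR3 by 1.83 ± 0.26. APR1 was lower by 0.84 ± 0.26, a call kept in 2 of the 6 fits without 1 isi1-2 library, and 46.4% of APR2 exon bases lie under a gene of the opposite strand. Of the genes that respond to sulfur status, SDI1 rose by 1.97 ± 0.47, with 0.5 ± 0.0374 CPM in wounded and 0.123 ± 0.0548 CPM in unwounded leaves, and LSU2 fell by 2.75 ± 0.36.

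**Figure D5:**
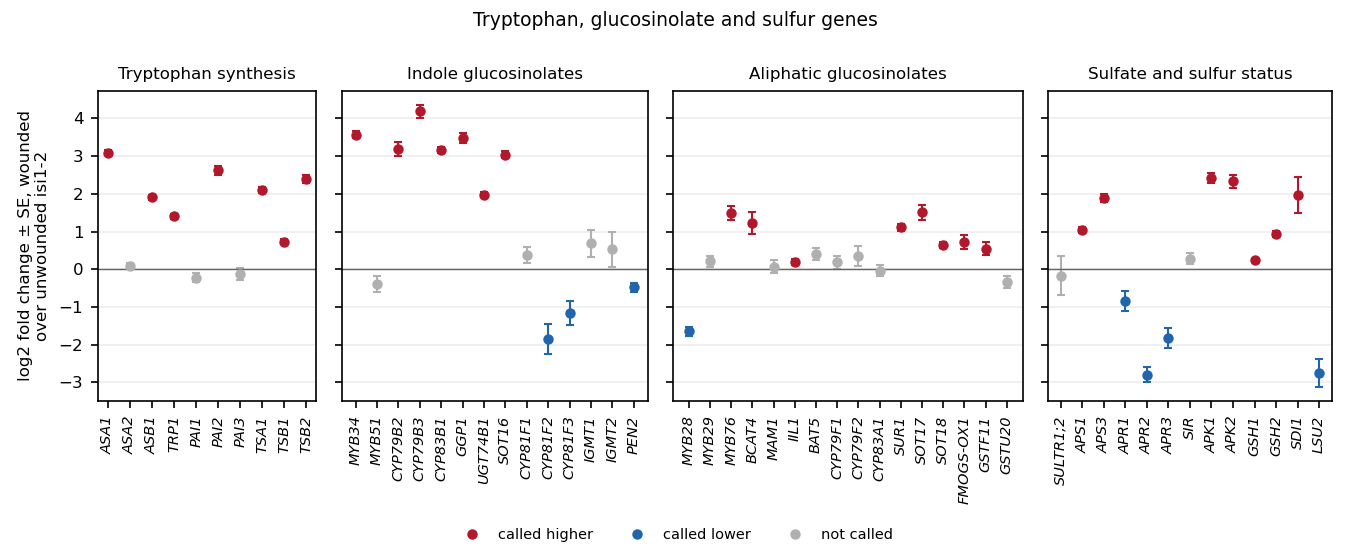
Log2 fold change ± SE of wounded over unwounded isi1-2 leaves for tested tryptophan, glucosinolate and sulfur genes; CYP81F4, with no counts in unwounded libraries, is left out. The indole core genes lie between 1.97 and 4.19, and APR2 and LSU2 lie at -2.80 and -2.75.

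Genes of gibberellin and brassinosteroid metabolism changed in both directions. Of 14 tested gibberellin genes 8 were higher and 5 lower, with a median of 0.67. GA2OX2, which inactivates gibberellins, had 46, 45.3 and 42.6 CPM in the wounded libraries, against 2.78, 3.1 and 2.22 CPM in the unwounded libraries (4.03 ± 0.20, edgeR adjusted p = 8.14e-09), and GA2OX6 rose by 2.41 ± 0.44, while GA2OX1 fell by 3.04 ± 0.39. The synthesis genes GA20OX1 and GA3OX1 fell by 1.74 ± 0.23 and 2.71 ± 0.32. RGL3, a DELLA repressor known to bind JAZ proteins, had 93.8, 83.2 and 74.5 CPM in the wounded libraries, against 2.15, 1.47 and 1.56 CPM in the unwounded libraries (5.60 ± 0.19), whereas the DELLA genes RGA and RGL2 fell by 1.12 ± 0.11 and 1.48 ± 0.26. Of 13 brassinosteroid genes 3 were higher and 6 lower. BR6OX1, of the last synthesis steps, fell by 3.68 ± 0.32, BR6OX2 by 1.2 ± 0.22, and BAS1, which inactivates the hormone, by 2.56 ± 0.21. BRI1, the receptor, fell by 0.79 ± 0.10 and its co-receptor BAK1 rose by 0.62 ± 0.11.

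Among auxin-related genes the SAUR genes were mostly lower. Of 15 tested genes with a SAUR symbol, small auxin-induced genes of cell expansion, 12 were lower and 2 higher, with a median of -1.64. SAUR24 had 2.41, 0.648 and 1.15 CPM in the wounded libraries, against 9.13, 6.95 and 7.28 CPM in the unwounded libraries (-2.48 ± 0.31, edgeR adjusted p = 1.90e-05), and SAUR20 and SAUR22 fell by 2.39 ± 0.23 and 2.43 ± 0.34. SAUR9 was the larger of both increases, at 3.15 ± 0.38. Of 19 tested Aux/IAA genes, which encode repressors of auxin responses, 4 were higher and 7 lower and 8 were not called, with a median of -0.13. IAA29 had 5.11, 2.27 and 3.61 CPM in the wounded libraries, against 19.2, 17.4 and 20.8 CPM in the unwounded libraries (-2.39 ± 0.30), IAA1 fell by 1.92 ± 0.28 and IAA18 rose by 2.05 ± 0.12.

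Wall genes fell in part. Of 13 tested alpha-expansins 6 were lower and 3 higher. Beside EXPA8, EXPA11 had 7.31, 5.83 and 6.98 CPM in the wounded libraries, against 54.7, 47.8 and 60.7 CPM in the unwounded libraries (-3.02 ± 0.11, edgeR adjusted p = 2.87e-12) and EXPA5 fell by 1.41 ± 0.09, while EXPA4 was not called. Of 18 tested xyloglucan endotransglucosylases 9 were lower and 4 higher, with a median of -0.40. XTH25 had 40.1, 48.1 and 39.5 CPM in the wounded libraries, against 2.63, 1.67 and 1.77 CPM in the unwounded libraries and rose by 4.39 ± 0.28, XTH32 fell by 1.60 ± 0.11, and XTH4 was not called (edgeR adjusted p = 0.804). Of 6 tested cellulose synthase genes 3 were lower and 1 higher, with CESA9, at a low level of 1.07 ± 0.243 CPM in wounded and 2.2 ± 0.428 CPM in unwounded leaves (SD, n = 3 each), lower by 1.04 ± 0.24, CESA5 lower by 0.41 ± 0.07, CESA2 lower by 0.24 ± 0.05 and CESA1 higher by 0.36 ± 0.06. Of 21 tested mitotic cyclin and CDKB genes 5 (23.8%) were lower, near the 25.7% of all genes, and 1 (4.76%) was higher, against 25.1%. Of these calls 2 were kept in all 6 fits without 1 isi1-2 library.

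Most chlorophyll synthesis and light-harvesting genes fell, some of them at least 2-fold. Of 13 chlorophyll synthesis genes 10 were lower, 3 of them at least 2-fold, and 0 higher, with a median of -0.54, and the list held 0.7% to 0.816% of all gene counts in wounded libraries and 1.23% to 1.34% in unwounded libraries. CAO, which makes chlorophyll b, had 90.3, 73.7 and 69.3 CPM in the wounded libraries, against 262, 269.6 and 237 CPM in the unwounded libraries (-1.72 ± 0.09, edgeR adjusted p = 3.79e-10). GUN4, an activator of magnesium chelatase, fell by 2.07 ± 0.12, with 73.0% of its exon bases under a gene of the opposite strand. HEMA1, the first enzyme of the route, fell by 0.93 ± 0.19, and the chelatase subunit gene CHLD was not called. Of 16 light-harvesting protein genes 12 were lower, 3 of them at least 2-fold, and 0 higher, with a median of -0.35, and they held 8.02% to 9% of all gene counts in wounded libraries and 11.2% to 11.3% in unwounded libraries. LHCB2.1 and LHCB2.2, near copies of each other, had 1791, 1308 and 1154 CPM in wounded and 3152, 3207 and 3273 CPM in unwounded leaves for LHCB2.1 and 1777, 1384 and 1232 CPM in wounded and 3003, 3106 and 3137 CPM in unwounded leaves for LHCB2.2. Of their exon windows 10.7% and 13.7% occur elsewhere in the genome. Replicate 1 was the highest wounded library for both, and the groups did not overlap. Of 21 nuclear photosystem subunit genes 7 were lower and 0 higher, with a median of -0.10, so most members were not called.

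Light signalling genes were lower more often than higher, with 8 lower and 2 higher of 15 tested. PIF5, a phytochrome-interacting growth factor, had 32, 33.7 and 33.8 CPM in the wounded libraries, against 85, 90.3 and 87.5 CPM in the unwounded libraries (-1.40 ± 0.06, edgeR adjusted p = 9.09e-12). PIF1 fell by 1.09 ± 0.12, and HFR1, a bHLH factor of light responses, and ELIP1, a light-induced chloroplast protein gene, fell by 2.91 ± 0.58 and 3.35 ± 0.52 but were under 1 CPM in every isi1-2 library. CRY2, a blue-light receptor, rose by 0.65 ± 0.07, and PHYB was not called (edgeR adjusted p = 0.461).

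Other stress hormones responded gene by gene. Of 20 tested abscisic acid genes 6 were higher and 9 lower. RD26 is in this list too. CYP707A1, which breaks abscisic acid down, rose by 2.05 ± 0.24, while its relatives CYP707A2 and CYP707A4 fell by 1.78 ± 0.32 and 2.82 ± 0.51, and RAB18, a marker of the response, was not called (edgeR adjusted p = 0.98). Of 16 tested ethylene genes 8 were higher and 2 lower. ACO4, which makes ethylene, had 418, 478 and 479 CPM in the wounded libraries, against 146, 165 and 186 CPM in the unwounded libraries (1.47 ± 0.09), and EBF1, an F-box protein that removes EIN3, rose by 1.66 ± 0.07. Of 13 tested salicylic acid genes 4 were higher and 4 lower, 30.8% each, near the 25.1% and 25.7% of all genes. EDS5, a transporter of salicylic acid precursor, had 51.6, 60.8 and 55.3 CPM in the wounded libraries, against 3.52, 3.89 and 3.08 CPM in the unwounded libraries (3.99 ± 0.12), and GRX480, a glutaredoxin that links salicylic acid to jasmonate genes, had 12, 12.1 and 10.4 CPM in the wounded libraries, against 0, 0.102 and 0.0411 CPM in the unwounded libraries. ICS1, the synthesis enzyme, fell by 0.75 ± 0.13, and EDS1 was not called.

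Cold-regulated genes and their activators moved in both directions. The CBF factors CBF2 and CBF3 were lower by 3.02 ± 0.44 and 2.13 ± 0.58, the call of CBF3 being kept in 5 of the 6 fits without 1 isi1-2 library, and CBF1 was not called (edgeR adjusted p = 0.0733). KIN1, COR47, COR15A and RD29A, genes of the cold and dehydration response, rose by 3.48 ± 0.31, 1.70 ± 0.20, 1.26 ± 0.16 and 1.29 ± 0.21. ZAT12, a zinc finger repressor of many stresses, had 6.89, 7.04 and 5.31 CPM in the wounded libraries, against 0.186, 0.136 and 0.123 CPM in the unwounded libraries (5.38 ± 0.25). The list of 13 tested genes had 8 higher, 5 of them at least 2-fold, and 4 lower, 3 of them at least 2-fold. Some calls in each direction are not named here, so the named genes do not stand for all targets or activators. ZAT6, the tested member of the ZAT and AZF list, rose by 3.57 ± 0.32. Of 25 tested heat shock genes 8 were higher and 6 lower, near the share of all genes.

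Phenylpropanoid genes rose and fell, with 9 higher and 6 lower of 17. PAL1, the entry enzyme, had 247, 253 and 195 CPM in the wounded libraries, against 71.3, 74.7 and 70.7 CPM in the unwounded libraries (1.68 ± 0.11), CAD5 of monolignol synthesis rose by 2.08 ± 0.18, and FAH1, which makes sinapate and syringyl units, fell by 1.60 ± 0.12. Of 9 tested flavonoid genes 3 were lower and 1 higher, with CHS, the entry enzyme, lower by 1.02 ± 0.17. Of 6 tested trichome regulators 1 was higher and 2 lower, both at least 2-fold, with a median of -0.39. The 1 called higher was GL3, a bHLH activator. GL3 had 1.54, 1.78 and 1.43 CPM in the wounded libraries, against 0, 0.17 and 0.123 CPM in the unwounded libraries, and rose by 3.93 ± 0.52. The GL3 paralogue EGL3, in the flavonoid list, fell by 3.35 ± 0.52. Of 15 tested tau glutathione transferases 8 were higher and 3 lower. GSTU6 had 71.6, 74.4 and 58.6 CPM in the wounded libraries, against 0.779, 0.579 and 0.658 CPM in the unwounded libraries, and GSTU4 rose by 6.68 ± 0.46.

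Sugar and water transport genes, of interest in a mutant named for sucrose, held single large changes. The ISI1 and sucrose transport list had 2 members called higher in isi1-2 and 2 in WT. In that list and in the starch, carbon starvation and aquaporin lists 0 genes were called for the interaction with genotype. Of all 18698 genes tested only 6 (0.0321%) were called for it, so a count of 0 in short lists says nothing about these genes. SWEET12, a sucrose exporter of phloem cells, had 59.1, 67.9 and 75.1 CPM in the wounded libraries, against 10.2, 7.94 and 7.07 CPM in the unwounded libraries (3.00 ± 0.17, edgeR adjusted p = 2.80e-08). SWEET11, its partner, was higher by 0.36 ± 0.14, a call kept in 2 of the 6 fits without 1 isi1-2 library. SUC2, the phloem loader, had 217, 206 and 211 CPM in the wounded libraries, against 228, 207 and 206 CPM in the unwounded libraries, overlapping groups that were not called (edgeR adjusted p = 0.85). Of 13 starch breakdown genes 6 were higher and 4 lower, and BAM5, a beta-amylase outside the chloroplast, rose by 5.25 ± 0.42. Of 10 tested carbon starvation and trehalose phosphate synthase genes 7 were higher and 1 lower. DIN6, the asparagine synthetase gene of dark-starved leaves, had 68, 61.6 and 47.2 CPM in the wounded libraries, against 8.65, 6.27 and 5.67 CPM in the unwounded libraries (3.1 ± 0.22). TPS9 rose by 1.75 ± 0.14 and TPS5 fell by 1.93 ± 0.11. Of 13 plasma membrane aquaporins 3 (23.1%) were higher and 5 (38.5%) lower, against 25.1% and 25.7% of all genes. All 5 PIP1 genes fell, PIP1;2 by 0.95 ± 0.06, and PIP2;3 had 62.7, 70 and 55.8 CPM in the wounded libraries, against 10.7, 8.59 and 7.48 CPM in the unwounded libraries and rose by 2.81 ± 0.16.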

How the data were processed

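Sample titles gave each library its group and number, and per the labels' protocols each replicate pooled 2 plants. The authors deposited raw read counts per gene, 1 table per library, with 34262 identifiers and 5 summary lines, which were dropped. The submitters' processing notes name cutadapt 1.8, STAR 2.5.3a, HTSeq 0.9.1 and the build TAIR10; their settings, and whether reads were counted by strand, are not given in the sources used here. CML30 held 1388 counts over the isi1-2 libraries although 100% of its exon bases lie under exons of an opposite-strand gene that the tables list. Symbols, products, overlaps and promoters are from RefSeq TAIR10.1. Sequences read from that assembly were not matched to coordinates in the files, which hold none.

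Genes were kept by filterByExpr (minimum count 10, minimum total 15), and the 18698 kept were fitted with edgeR 4.0.16 in R 4.3.3 (TMM scaling, robust quasi-likelihood test, 1 coefficient for each of 4 groups over 12 libraries, Benjamini-Hochberg adjustment). The floor of 3 counts per library, 0.104 to 0.126 CPM in isi1-2, and 95% intervals of count ratios cover counting error only. No pair of replicate tables was identical. On counts simulated for these 18698 genes the fit recovered 79.1% of 1.5-fold, 97.0% of 2-fold and 100% of 4-fold changes, and 3.66% of calls were false. In that simulation only 67, 67 and 66 genes were changed by these folds, none of them at a low count. A common spread was used for all genes, with no difference between genotypes. The deposited data gave far more calls, so these rates are not shown to hold for them. Alternatives were DESeq2 1.42.0, RLE scaling, no filter, the 6 isi1-2 libraries alone, a replicate block and each library left out.

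The members and the 47 gene lists were chosen with earlier results of these data known; 14 list entries whose symbol the gene table does not pair with the locus, and 3 symbol matches that name other proteins, were left out. Genes were named by rule: the 10 largest increases and decreases among calls with mean log2 CPM of at least 1 and separate groups, and from each list the 3 largest calls in its main direction, 1 in the other and the most abundant uncalled member, besides ISI1, JAZ10, LOX3, VSP2 and list members called for the interaction. Other list members named beside them, such as further steps of a route, were chosen after their values were seen.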

Additional observations from a re-analysis of the deposited data

Results flagged for a closer look

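A different wounding response in isi1-2 and WT was called in edgeR's interaction test for 3 members of the gene lists. No interaction call was kept in every fit that left out 1 library, since in some such fit no gene was called. For EXPA10 the response in isi1-2 minus that in WT was 1.106 on the log2 scale (adjusted p = 0.0379), with responses of 2.29 in isi1-2 and 1.19 in WT. For FKF1 the difference was -0.7649 (adjusted p = 0.0376), with responses of 0.45 in isi1-2 and 1.21 in WT. For PRR5 it was -0.7963 (adjusted p = 0.0453), with responses of 0.12 in isi1-2 and 0.91 in WT. FKF1 averaged 67.9 ± 2.02 CPM in unwounded isi1-2 leaves and 39.4 ± 5.69 CPM in unwounded WT leaves (SD, n = 3 each), and PRR5 averaged 112 ± 8.68 CPM in unwounded isi1-2 leaves and 85.0 ± 7.95 CPM in unwounded WT leaves. These gaps between unwounded groups enter the interaction. EXPA10 averaged 16.6 ± 1.03 CPM in unwounded isi1-2 leaves and 14.1 ± 1.43 CPM in unwounded WT leaves.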

How the results depend on the processing

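The count of genes called for wounding in isi1-2 ranged from 8305 to 9884 when 1 library was left out and stayed within 1.5 times the reported count under every other alternative. DESeq2 kept 9134 of the 9508 calls and RLE scaling 9443, with a shift of 0.0048 (log2) over all genes. Same-numbered wounded and unwounded isi1-2 libraries deviated together by correlations of -0.0079, 0.138 and -0.0300, so the numbers were not taken to pair the samples; the replicate block gave 9799 calls, 9384 of them shared, and 9424 with the isi1-2 libraries alone. The interaction was the unstable result: 6 genes in the reported fit, 146 with DESeq2, 29 without the filter, 75 with the replicate block and 0 to 245 with 1 library left out (245 without replicate 1 of wounded WT, 19 and 12 without replicates 1 and 3 of wounded isi1-2). The cause was not tested. Of 3986 values of named genes under alternatives 3922 kept their direction and side of the threshold, 46 lost and 18 gained the call and 0 reversed. CYCA2;4, SWEET11, CA1, CML42, CYP707A3 and CYCB1;3 lost it under at least 4 alternatives each. Of 1422 counts of list members 47 moved by over 1.5 times, in 13 counts, among them mitotic genes lower and ISI1 and sucrose transport genes higher.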

Other observations

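Families of genes that share 1 RefSeq product name and have at least 20 tested members were also counted, a grouping chosen after the fit was seen; 25.1% of all genes were called higher and 25.7% lower. There were 76 such families, and those described below were picked because their shares lay far from these. The largest families were not all so: protein kinase superfamily proteins had 60 of 241 higher and 61 lower. SAUR-like auxin-responsive proteins, most of which have no SAUR symbol in the gene table, had 8 of 48 tested members higher and 30 lower, 26 of them at least 2-fold lower, with a median log2 fold change of -1.04. Phototropic-responsive NPH3 proteins, of the family that acts beside phototropins, had 6 of 28 higher and 20 lower, with a median of -0.79. GDSL-like lipases had 10 of 39 higher and 21 lower, pectin lyase-like proteins, which act on wall pectin, 6 of 41 higher and 21 lower, and leucine-rich repeat protein kinases 19 of 85 higher and 44 lower. In the other direction, Integrase-type DNA-binding proteins, a name that RefSeq gives to AP2/ERF factors, had 23 of 46 higher and 9 lower, calcium-binding EF-hand proteins 12 of 29 higher and 1 lower, and 2-oxoglutarate-dependent oxygenases 25 of 61 higher and 12 lower. Of 30 mitochondrial transcription termination factor proteins 1 was higher and 13 were lower.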
